A study of Homo sapiens and Mus musculus with 16 samples.

Results

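Small RNA of BNL CL.2, an established mouse liver cell line that served as the non-cancer control, was compared between cells given AcFBE, an ethanol extract of the fruiting body of the fungus Antrodia cinnamomea, and cells given DMSO. The miRNAs described are all 305 mouse miRNAs of the BNL CL.2 table, read in 4 of the 16 libraries of the series. Library 2U came from cells in DMSO for 2 h, 2T from cells in 0.5 mg/ml AcFBE for 2 h, and 4U and 4T from the same conditions at 4 h. Of the remaining libraries, 8 hold miRNAs of SK-HEP-1, a human liver cancer line, and 4 its mRNA. The labels give no other agent or genetic change, and because the extract was dissolved in DMSO, both arms received the solvent. Each condition was 1 library, the line is a single cultured line, and the 2 h and 4 h pairs were the closest thing to a repeat. The p-values below therefore rest on how far the pair of time points disagreed, an amount shared in part across miRNAs and not each miRNA's own. They do not measure the spread between cultures. The question was which miRNAs were higher or lower in treated cells at both times.

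A miRNA is cut from a hairpin precursor, and 1 arm of the hairpin usually becomes the mature miRNA while the other, written with a star, is mostly degraded. The mature strand, held by an Argonaute protein, binds mRNAs mainly through its seed, bases 2 to 8 counted from the 5′ end, and lowers their translation or stability. miRNAs with the same seed form families that can share targets, and miRNAs of neighbouring hairpins can be cut from 1 transcript. In liver, miR-122 is the dominant miRNA of hepatocytes, let-7 is known to restrain growth genes, and the miR-17-92 and miR-106b-25 clusters are known to drive the cell cycle.

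The miRNAs on which the comparison turned are shown first. The sequences are the human miRNAs of the same name and arm (RefSeq, GRCh38.p14), because no mouse sequence table was used here, and the mouse sequence may differ. Letters in capitals mark the seed. The miRNAs higher in treated cells at both times had 4 different seeds:
let-7b: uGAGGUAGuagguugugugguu
miR-93: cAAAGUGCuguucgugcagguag
miR-210: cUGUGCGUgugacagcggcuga
miR-15b*: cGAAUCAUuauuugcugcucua
Those lower in treated cells at both times, with miR-129-5p as the last, had 5 further seeds:
miR-25: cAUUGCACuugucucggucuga
miR-99b*: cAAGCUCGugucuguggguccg
miR-744: uGCGGGGCuagggcuaacagca
miR-125a-3p: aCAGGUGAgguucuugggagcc
miR-129-5p: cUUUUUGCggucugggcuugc

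Some of these are near copies of other miRNAs in the table, which matters because short reads can be assigned to the wrong family member. The human let-7b differs from let-7c at 1 of 22 positions and from let-7a at 2. miR-93 differs from miR-17 and from miR-20a at 4 of 23 positions, and miR-25 from miR-92a at 4 of 22. These are the relatives, with the shared seeds again in capitals:
let-7a: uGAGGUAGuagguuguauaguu
let-7c: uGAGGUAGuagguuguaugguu
let-7d: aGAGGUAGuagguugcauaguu
let-7e: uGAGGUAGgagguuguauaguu
miR-17: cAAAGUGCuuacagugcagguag
miR-20a: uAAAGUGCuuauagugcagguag
miR-106b: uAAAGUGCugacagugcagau
miR-92a: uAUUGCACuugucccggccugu

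The deposited counts held between 670185 (2U) and 1118579 (2T) reads assigned to miRNAs. In every library the study lists more reads mapped to miRBase than these counts hold. Which reads were left out is not given in the sources used here. Counts were scaled to RPM, reads per 1000000 quality reads of the library. The deposited miRNA reads made up 9.61% to 11.3% of quality reads. A count of 0 allows up to 3 reads, which is 0.284 to 0.506 RPM, and the lowest count above 0 was 2. The sequencer is given as SOLiD 5500xl in the labels and as SOLiD 3 in part of the study's methods. Of the liver markers, miR-122 had 2 reads in each untreated library and 0 in each treated one, so the defining marker of hepatocytes was at or near 0. The summed epithelial markers (miR-200a, miR-200b and miR-429 of 5 listed) had 2 to 7 reads, miR-145 of the mesenchymal list 0 to 3, miR-451 of the blood list 2 to 7 and miR-206 of the muscle list 0 to 6. miR-126 of endothelium had 142 reads in 2T and 17 to 39 in the others, and miR-128 of the neural list 230 to 481. The other markers and the clusters listed for embryonic stem cells, Dlk1-Dio3 and Sfmbt2 were not analysed here.

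The 10 most abundant miRNAs were within 2-fold between the conditions at both times, with 1 exception. In bulk RNA such as this, fewer cells with a miRNA and less of it per cell cannot be told apart. The 10 most abundant took 80.8% to 82.7% of the miRNA reads. miR-125b-5p, a regulator of differentiation, alone took 35.2% to 46.6%, at 40397 RPM (2U), 37240 (2T), 38947 (4U) and 44770 (4T). The log2 ratio of treated to untreated was -0.12 at 2 h and 0.20 at 4 h. Next came miR-103 at 7647 to 11333 RPM, miR-125a-5p at 5537 to 9238 and miR-99b at 4194 to 5801. miR-23a (3661 to 5612 RPM), miR-15b (2941 to 4572), miR-17 (1526 to 2870), miR-29a (1424 to 3202) and miR-182 (1481 to 2724) completed the list with miR-31. Apart from miR-31, the log2 ratios of these abundant miRNAs lay between -0.91, for miR-29a at 2 h, and 0.58, for miR-15b at 4 h. miR-31, the third in mean level, was at 8264 RPM (2U), 13730 (2T), 9480 (4U) and 86.8 (4T). In 4T it was thus far below the other libraries, the untreated ones and the other treated one alike.

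Across all miRNAs, 110 reached at least 10 RPM in either library of both pairs. At 2 h, 14 of 116 (12.1%) were at least 2-fold higher in treated cells and 18 (15.5%) at least 2-fold lower, where a miRNA at 0 in 1 library of the pair counts as past 2-fold. At 4 h, 21 of 118 (17.8%) were higher and 10 (8.47%) lower. Of the 110, 4 (3.64%) were at least 2-fold higher at both times and 4 (3.64%) at least 2-fold lower at both times. The median log2 ratio over miRNAs above 0 in both libraries was -0.38 at 2 h (95% rank interval -0.47 to -0.25, 216 miRNAs) and -0.011 at 4 h (-0.12 to 0.22, 205 miRNAs). TMM scaling, which sets the bulk of miRNAs level, moved the first of these to 0.044. Among the 107 with a ratio at both times, 20 were above 0 at both times, 37 below 0 at both, 13 above 0 at 2 h only and 37 at 4 h only. Most miRNAs past 2-fold were so at 1 time point: 8 were higher at 2 h only and 15 at 4 h only, against 4 at both. Of those lower, 11 were past 2-fold at 2 h only and 4 at 4 h only.

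**Figure D1:**
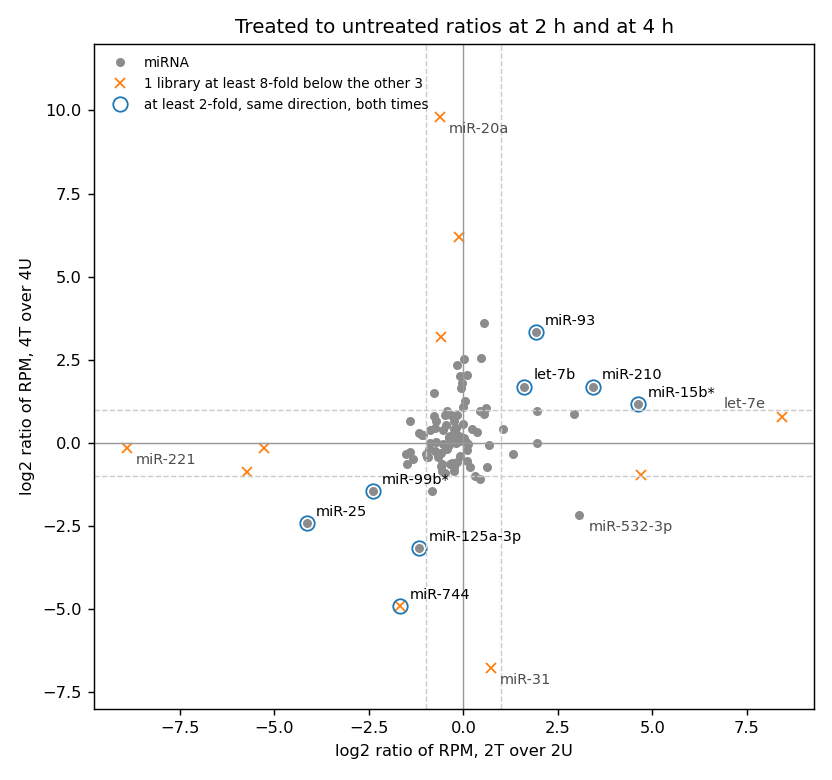
Log2 ratio of RPM, treated over untreated, at 2 h (horizontal axis) and at 4 h (vertical axis) for the 107 miRNAs with a ratio at both times; dashed lines mark 2-fold, circles the 8 miRNAs past 2-fold in the same direction at both times, and crosses those in which 1 library lay at least 8-fold below the other 3. Most points lie within the dashed lines, and most crosses lie far out along 1 axis, such as miR-20a (-0.62, 9.80) and miR-31 (0.73, -6.77).

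Libraries of the same treatment also differed from 2 h to 4 h, which gives a yardstick, though time is a real difference. Of the 110 miRNAs, 8 (7.27%) were at least 2-fold higher in 4U than in 2U and 32 (29.1%) lower. Between the treated libraries, 10 (9.09%) were higher in 4T than in 2T and 8 (7.27%) lower. The median absolute log2 ratio was 0.55 for 2T over 2U, 0.64 for 4T over 4U, 0.67 for 4U over 2U and 0.30 for 4T over 2T. The untreated libraries thus differed from each other about as much as treated from untreated. The library farthest from the other 3 was most often 2U, lying above them (32 of the 110 miRNAs), or 4U, lying below them (29 miRNAs).

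In the edgeR quasi-likelihood test on all 4 libraries with time as a term, the 185 miRNAs that averaged 1 RPM or more over the libraries were tested. No miRNA was higher in treated cells at an adjusted p under 0.05 (0%), and 1 was lower (0.541%). At an unadjusted p under 0.05, 6 were higher (3.24%) and 8 lower (4.32%). The 1 call was miR-129-5p, a miRNA best known from neural tissue. It had 47 reads (2U), 0 (2T), 57 (4U) and 0 (4T), so the untreated and treated libraries did not overlap. In RPM it stood at 7.92 in 2U and 6.47 in 4U, under the minimum of 10 RPM used for the 2-fold counts. With 3 reads put in each treated library and the untreated counts taken as exact, it was 27.9-fold lower at 2 h and 19.2-fold lower at 4 h (edgeR adjusted p = 0.0332). The counting intervals, which also cover the untreated counts, had upper log2 limits of -4.45 at 2 h and -3.92 at 4 h. The call was lost with TMM or the miRNA total as the scaling, in limma, and without the time term, with all 4 libraries or with any 1 left out, and it was kept in DESeq2 (adjusted p over all alternatives 8.99e-07 to 0.995). The other arm of a miR-129 hairpin, miR-129-2-3p, was among the abundant miRNAs and was level, at 1958 RPM (2U), 1750 (2T), 1608 (4U) and 1846 (4T).

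Of the 4 miRNAs higher at both times, let-7b had the most even ratio. This member of the let-7 family, whose targets include growth genes, was at 94.4 RPM (2U), 288 (2T), 81.9 (4U) and 264 (4T). The untreated libraries lay close together, as did the treated ones, with no overlap between them. The miRNAs past 2-fold at both times were picked for their ratios, so such a separation is partly given by that choice. How many of all miRNAs were separated in this way is not given here. For let-7b the fold was 3.05 at 2 h and 3.23 at 4 h. Its log2 ratio was 1.61 (95% counting interval 1.48 to 1.74) at 2 h and 1.69 (1.57 to 1.81) at 4 h. Over both times edgeR gave a log2 fold change of 1.65 ± 0.70 (SE), with an adjusted p of 0.631. Of the other tools tried, limma on log2(RPM + 1) called 0 miRNAs in either direction (let-7b adjusted p = 0.572), with 6 higher and 8 lower at an unadjusted p under 0.05. DESeq2 called let-7b, miR-210 and miR-93 higher and miR-129-5p and miR-25 lower, with either its own size factors or the quality reads.

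miR-210, a miRNA known to be raised in low oxygen by hypoxia-inducible factor, was at 20.2 RPM (2U), 216 (2T), 97.9 (4U) and 316 (4T). Both treated libraries were above both untreated ones, and 4U was itself 4.84-fold above 2U. The log2 ratio was 3.42 at 2 h (3.15 to 3.70) and 1.69 at 4 h (1.58 to 1.80), and edgeR gave 2.55 ± 0.81 (SE, adjusted p = 0.461). The star arm of the same hairpin, miR-210*, stood at 91.0, 34.3, 43.0 and 35.6 RPM in 2U, 2T, 4U and 4T. Its ratios had the opposite sign, -1.41 at 2 h and -0.27 at 4 h, and in 2U the star arm exceeded the mature one.

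miR-93, of the miR-106b-25 cluster, was at 8.43 RPM (2U), 31.6 (2T), 6.81 (4U) and 68.9 (4T). The treated libraries were above the untreated ones at both times, by a log2 ratio of 1.91 (1.48 to 2.37) and 3.34 (2.95 to 3.75). edgeR gave 2.62 ± 0.90 (SE, adjusted p = 0.461). miR-15b*, the minor arm of the miR-15b hairpin, had 3 reads (2U), 132 (2T), 54 (4U) and 123 (4T). That is 0.506, 12.5, 6.13 and 13.8 RPM, and its log2 ratio of 4.63 at 2 h (3.05 to 6.92) rested on the 3 reads of 2U. At 4 h it was 1.18 (0.70 to 1.66). The mature arm miR-15b, far more abundant, had log2 ratios of -0.01 and 0.58.

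**Figure D2:**
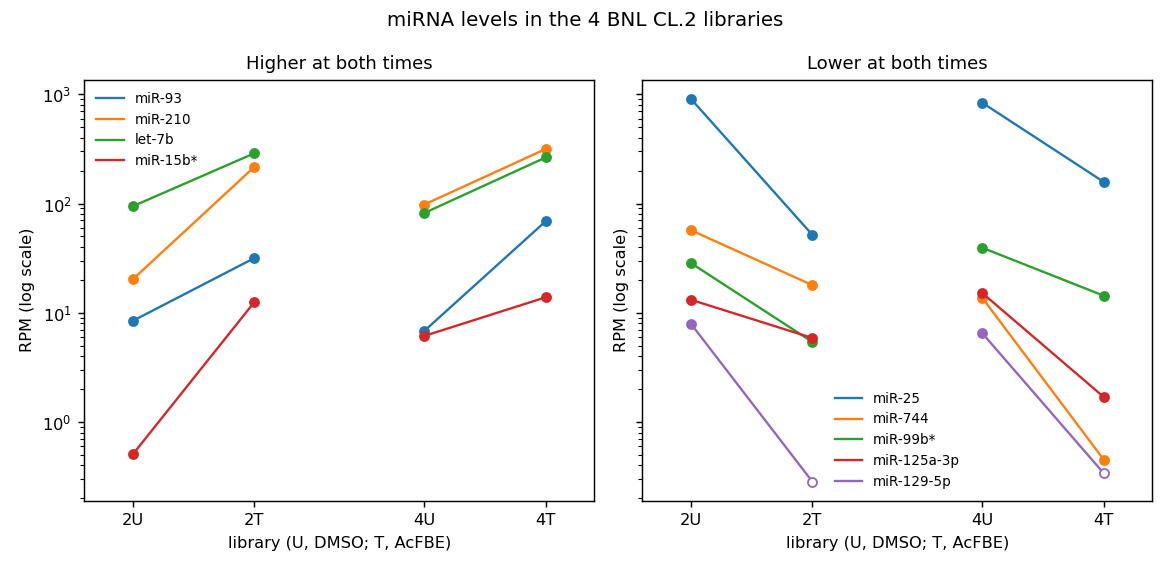
RPM on a log axis in the libraries 2U, 2T, 4U and 4T for the 4 miRNAs at least 2-fold higher at both times (left) and, on the right, the 4 at least 2-fold lower and miR-129-5p; each point is 1 library, lines join the pair of a time point, and open points are counts of 0 drawn at 3 reads. let-7b runs nearly parallel at both times (94.4 to 288 and 81.9 to 264 RPM), and miR-25 runs from 908 to 51.6 and from 835 to 157 RPM.

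Of the 4 miRNAs lower at both times, miR-25 was the most abundant and had the largest difference at 2 h. Also of the miR-106b-25 cluster, it was at 908 RPM (2U), 51.6 (2T), 835 (4U) and 157 (4T). The untreated libraries were 1.09-fold apart and the treated ones lay far below them. Treated cells had 17.6-fold less at 2 h and 5.31-fold less at 4 h, a log2 ratio of -4.14 (-4.27 to -4.01) and -2.41 (-2.49 to -2.32). edgeR gave -3.27 ± 0.77 (SE), with an adjusted p of 0.151, second in rank after miR-129-5p.

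miR-99b*, the minor arm of miR-99b, was at 28.5 RPM (2U), 5.40 (2T), 39.3 (4U) and 14.3 (4T), with log2 ratios of -2.40 (-2.86 to -1.96) and -1.46 (-1.76 to -1.16). miR-125a-3p, the minor arm of miR-125a, was at 13.1, 5.87, 15.1 and 1.69 RPM, with ratios of -1.16 (-1.67 to -0.66) and -3.16 (-4.04 to -2.39). In both, each treated library was below each untreated one. Their hairpins are neighbours: in the human genome MIR99B, MIRLET7E and MIR125A lie within 728 bases on chromosome 19, plus strand (chr19:51692612-51693339, GRCh38.p14). The abundant arms were nearer to level, with log2 ratios of -0.47 and -0.12 for miR-99b and 0.16 and -0.74 for miR-125a-5p. let-7e, between them in the human cluster, had ratios of the opposite sign, which rested at 2 h on 8 reads in 2U.

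miR-744 was at 57.0 RPM (2U), 17.9 (2T), 13.6 (4U) and 0.450 (4T). Here 2T exceeded 4U, so the groups overlapped, although each pair was past 2-fold (-1.67, then -4.92 with an interval of -6.82 to -3.53 from 4 reads in 4T). The values nearest the 2-fold limit were those of miR-125a-3p and miR-15b* inside it, with smaller ratios of 1.16 and 1.18 in size. Just outside it were miR-16 (1.94 and 0.97), miR-181c* (-5.74 and -0.89) and let-7d (2.91 and 0.85), all in log2. miR-16, known to slow the cell cycle, had 90 reads (2U), 613 (2T), 72 (4U) and 142 (4T), and let-7d was at 129, 973, 1266 and 2288 RPM in the same order.

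The let-7 family, taken as a list, had 9 members in the table and 8 above the filter of 1 RPM. Of these 8, 7 had a positive edgeR log2 fold change, against 78 of all 185 tested, and 0 passed the test. The median was 1.58, against -0.10 over the 185. At least 2-fold higher were 3 at 2 h (let-7b, let-7d and let-7e) and 4 at 4 h (let-7a, let-7b, let-7c and miR-98). Of all miRNAs considered, 12.1% and 17.8% were, and no let-7 member was at least 2-fold lower. In 2U let-7e had 8 reads, and let-7d was at 129 RPM against 973 to 2288 RPM in the other libraries. Apart from let-7b, the human counterparts had a GC content of 31.8% to 40.9%. The third of miRNAs with the lowest GC (at most 44.8%) had a median log2 ratio of 0.58 at 4 h. The part of GC in the family's ratios was not tested. The family summed to 2068 RPM (2U), 3825 (2T), 2189 (4U) and 5938 (4T), a log2 ratio of 0.89 at 2 h and 1.44 at 4 h. Whether the deposited counts give a read that fits several members to 1 name or to more is not given in the sources used here. let-7a was at 575, 789, 224 and 1314 RPM and let-7c at 575, 838, 98.6 and 1206 RPM. Both were nearly equal in 2U and both were low in 4U. let-7f (-0.37 and 0.87) and let-7g (-0.89 and 0.38) were lower at 2 h and higher at 4 h.

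**Figure D3:**
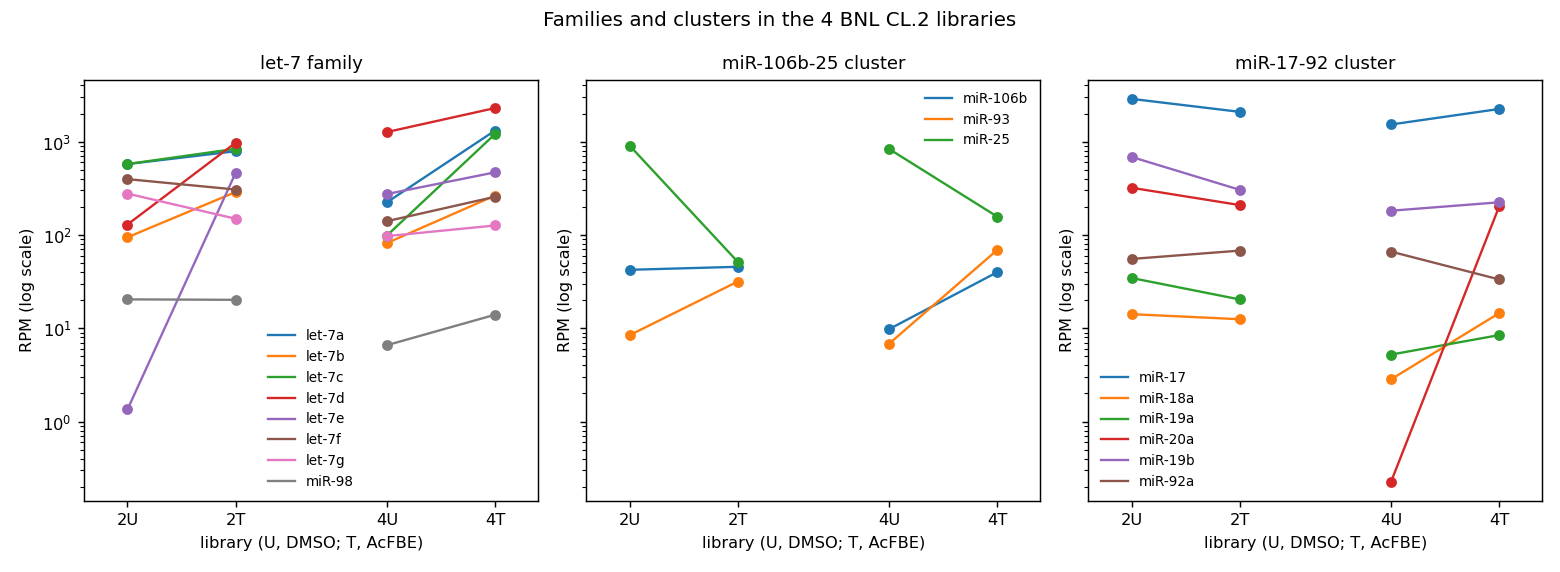
RPM on a log axis in the libraries 2U, 2T, 4U and 4T for the let-7 family, the miR-106b-25 cluster and the miR-17-92 cluster; each point is 1 library and lines join the pair of a time point. The let-7 members mostly slope upward at 4 h, miR-25 slopes opposite to miR-93, and miR-20a and let-7e each have 1 library, 4U and 2U, far below the other 3.

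Members of the oncogenic clusters differed in direction. In the miR-106b-25 cluster, whose human hairpins MIR106B and MIR25 lie within 515 bases on chromosome 7, minus strand (chr7:100093560-100094074, GRCh38.p14), miR-25 was lower and miR-93 higher in treated cells at both times. miR-106b was at 42.3 RPM (2U), 45.5 (2T), 9.77 (4U) and 39.9 (4T), with log2 ratios of 0.11 and 2.03. The cluster summed to 958, 129, 851 and 266 RPM, most of it miR-25 in the untreated libraries. None of its 3 members passed the test, 2 had positive and 1 negative log2 fold changes, and their median was 1.06.

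Of the 6 members of the miR-17-92 cluster, none passed the test, 3 had positive and 3 negative edgeR log2 fold changes, and the median was 0.00 to 2 decimals, against -0.10 over all tested. At 2 h, 1 was at least 2-fold lower (miR-19b, 685 against 304 RPM), and at 4 h, 2 were at least 2-fold higher. These were miR-18a, from 2.84 to 14.5 RPM, and miR-20a, from 2 reads in 4U to 1797 in 4T. miR-20a was at 320 RPM in 2U and 209 in 2T, so 4U was the library that stood apart, as it was for miR-18a, at 14.2 RPM in 2U and 12.5 in 2T. miR-92a, which shares its seed with miR-25, was at 55.3, 67.9, 66.2 and 33.3 RPM. The pair summed to 963, 119, 901 and 191 RPM, with log2 ratios of -3.01 and -2.24.

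The 4 miRNAs with the seed of miR-93 (miR-17, miR-20a, miR-93 and miR-106b) summed to 3241, 2369, 1542 and 2548 RPM, with log2 ratios of -0.45 and 0.72. miR-93 held a small part of that sum, and miR-17 most of it. Among the oncogenic miRNAs outside the clusters, miR-21 was low in this line, at 14.0, 13.5, 5.11 and 17.9 RPM, and miR-191 was at 535, 731, 1011 and 476 RPM. Neither had ratios of the same sign at both times past 2-fold, with -0.05 and 1.81 for miR-21 and 0.45 and -1.09 for miR-191. miR-425, from the hairpin next to miR-191, had ratios of -0.22 and 0.38.

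Among the other families, the miR-23/27/24 clusters had 5 of 5 tested members with negative log2 fold changes and a median of -0.49, and the miR-29 family, known to target collagen genes, 3 of 3 with a median of -0.41. Of all 185 tested, 107 were negative. None of these family members passed the test, and 2 of the 3 miR-29 members had a ratio above 0 at 4 h. Their sums were 11043, 7479, 6965 and 6810 RPM and 3627, 1961, 1730 and 1592 RPM in 2U, 2T, 4U and 4T. In both, 2U was above the other 3 libraries, and 4U and 4T were close. The miR-181 family, of 4 members, summed to 469, 593, 347 and 592 RPM, with higher values in both treated libraries (log2 ratios of 0.34 and 0.77) and a median of 0.31. The miR-103 and miR-107 family had 2 members, both negative, and summed to 10912, 9608, 11581 and 7784 RPM. The miR-15/16 family (2 tested, both positive, median 0.87) summed to 4588, 4590, 2950 and 4409 RPM, nearly all of it miR-15b.

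The smaller lists held few measured members and gave 0 calls. The miR-30 family had 3 tested members, 2 positive, with a median of 0.13, and the miR-34 family 2 with a median of 0.24. miR-34a, a target of p53, was at 109, 224, 210 and 281 RPM, with log2 ratios of 1.05 and 0.42, though 2T and 4U were close. The miR-99/100 and miR-125 list had 4 tested members, 1 positive, with a median of -0.29. miR-26a (411, 662, 509 and 485 RPM) led the miR-26 and miR-101 list, whose 2 tested members had a median of -0.77, and miR-10a was under 2 RPM throughout. Among 4 tested stress-responsive miRNAs, 3 were positive with a median of 0.65. They include miR-210 and miR-31, given above, and miR-22, at 200, 300, 180 and 374 RPM. Of miR-21, miR-191 and miR-425, 2 of 3 were positive with a median of 0.08. The miR-106a-363 cluster had only miR-106a, with 0 to 4 reads.

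Arms of the same hairpin could be set against each other in 15 pairs with both arms at 10 RPM or more in either library of each pair. The arms had ratios of the same sign in 6 of 15 pairs at 2 h and in 9 of the 13 with a value at 4 h. The 56 star strands tested had a median log2 fold change of -0.14, with 22 positive, 34 negative and 0 calls. Their sum was 1629 RPM (2U), 1067 (2T), 1016 (4U) and 1056 (4T), so 2U stood above the rest.

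A pattern in which 1 library lay at least 8-fold from the other 3 was found in 13 of the 107 miRNAs with a median of at least 10 RPM. In all 13 the library lay below the others, and in none above them. The minimum on the median left out any miRNA under 10 RPM in 3 libraries, such as miR-16-2*. The direction was therefore partly set by that minimum. The library was 2U for let-7e, miR-222 and miR-320, 2T for miR-181c*, miR-221 and miR-7a-1*, 4U for miR-20a, miR-31* and miR-93*, and 4T for miR-193*, miR-31, miR-378* and miR-744. So it was spread over all libraries, untreated and treated, with 3 or 4 miRNAs in each. miR-221 was at 137 RPM (2U), 3 reads (2T), 141 RPM (4U) and 127 (4T). let-7e had 8 reads in 2U, against 462, 274 and 469 RPM in 2T, 4U and 4T. miR-378* had 0 reads in 4T, against 109, 75.4 and 128 RPM. For miR-31, 4T was 95.2-fold below the lowest of the other 3, which agreed within 1.66-fold. Of the 8 miRNAs past 2-fold at both times, only miR-744 was among the 13, and without the 13 the counts were 4 higher and 3 lower.

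**Figure D4:**
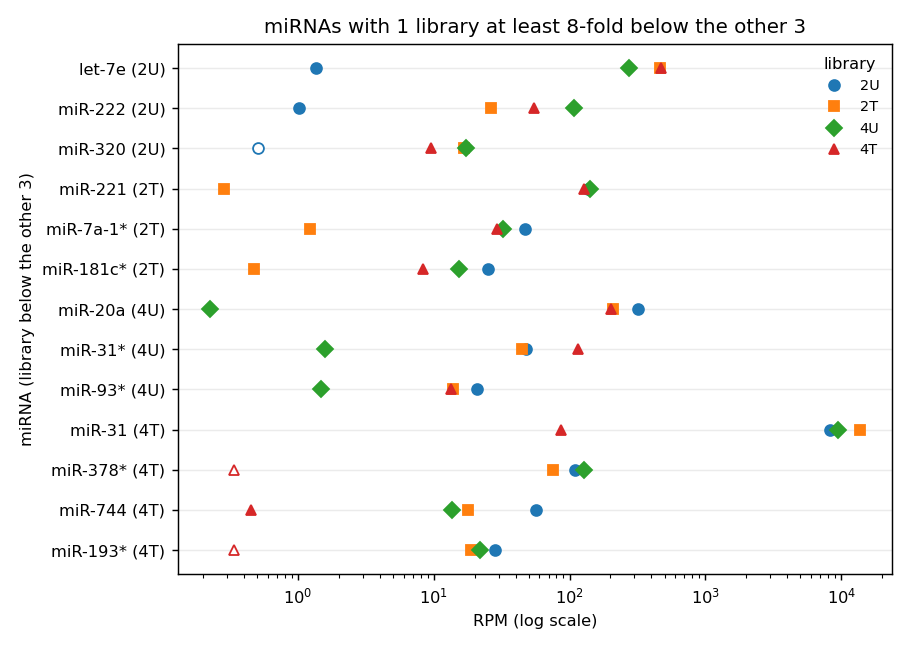
RPM on a log axis of the 13 miRNAs in which 1 library, named in parentheses, lay at least 8-fold below the other 3; each symbol is 1 library, and open symbols are counts of 0 drawn at 3 reads. In each row 3 symbols lie together and 1 lies far to the left, in 2U, 2T, 4U or 4T depending on the miRNA.

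Partners by hairpin or seed of some miRNAs low in 1 library were low in another library. miR-222, with the seed of miR-221 and from the neighbouring hairpin, was at 1.01, 26.3, 107 and 54.7 RPM, low in 2U, where miR-221 was not. miR-31* was low in 4U and miR-31 in 4T. miR-93* was at 20.9, 13.9, 1.48 and 13.5 RPM, so 4U was low and the log2 ratio at 4 h was 3.19. Base composition moved with some ratios. Across 93 miRNAs with a human sequence, the log2 ratio of 4T over 4U had a Spearman correlation of -0.48 (Pearson -0.35) with the GC content of the human counterpart. For 2T over 2U it was -0.10 (Pearson -0.08, 95 miRNAs), for 4U over 2U 0.32 (0.15, 95 miRNAs) and for 4T over 2T -0.06 (-0.11, 93 miRNAs). The points of each contrast share their libraries, and the contrasts with a correlation of 0.3 or more in size share 4U.

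The third of miRNAs with the lowest GC (at most 44.8%) had a median log2 ratio of 0.58 at 4 h and the third with the highest (at least 52.2%) -0.53. At 2 h, with the lower of these limits at 45.5%, the medians were -0.19 and -0.47. Of the miRNAs past 2-fold at both times, the GC of the human counterpart was 45.5% for let-7b, 52.2% for miR-93, with miR-25 between these, 63.6% for miR-210 and 36.4% for miR-15b*, and 59.1% for miR-125a-3p and 63.6% for miR-99b* and miR-744. After a straight line on GC was subtracted in each pair, let-7b, miR-93, miR-210, miR-25, miR-744 and miR-125a-3p were still past 2-fold at both times, miR-15b* and miR-99b* were not, and miR-301a was newly so. The part of GC content in the ratios was not tested further.

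**Figure D5:**
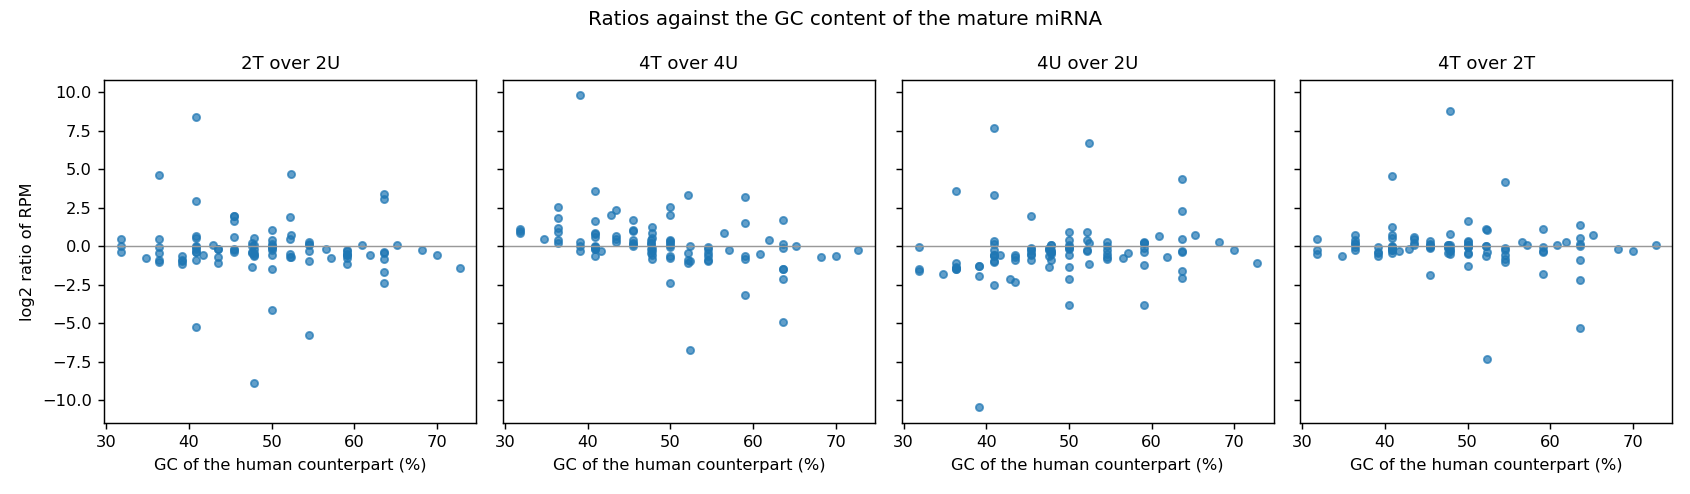
Log2 ratio of RPM against the GC content of the human counterpart (percent) for 2T over 2U, 4T over 4U, 4U over 2U and 4T over 2T; each point is 1 of the 93 to 95 miRNAs with at least 10 RPM in either library of both pairs and a human sequence. The downward slope is clearest for 4T over 4U (Spearman -0.48) and close to flat for 4T over 2T (-0.06).

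SK-HEP-1 cells gave 4 pairs, from 2 batches at 2 and 4 h, in which the median log2 ratio of the miRNAs with at least 10 RPM in either library was between -2.09 and -1.08. Of the miRNAs past 2-fold at both times, miR-25, let-7b, miR-93 and miR-99b* had a ratio in all 4 pairs and miR-210 in 3. miR-744 had a ratio in 2 pairs, and miR-15b* and miR-125a-3p in 1. miR-25 was lower in all 4 of these pairs too, by log2 ratios of -1.86 and -1.97 in its first batch, then -1.34 and -0.86 in its second, all nearer to the medians of their pairs than in BNL CL.2. let-7b, at 1.61 and 1.69 in BNL CL.2, had 0.00, 0.45, 0.52 and -0.76 in SK-HEP-1. The medians of these SK-HEP-1 pairs were -2.09, -1.58, -1.20 and -1.08 in the same order, so let-7b lay above each. By the same rule the medians in BNL CL.2 were -0.34 at 2 h and 0.05 at 4 h, and let-7b lay above these too. miR-93 had -3.04 and -3.29 at 2 h and 0.46 and 2.19 at 4 h. For miR-210 the first batch gave -1.39 and -0.80, the second 1.94 at 4 h. miR-99b* had -1.11, -1.17, 0.31 and -1.22 in the order of let-7b, and miR-744 had -2.22 and -1.55 in the first batch. At 2 h in the second batch miR-15b* had -1.81 and miR-125a-3p -2.01. let-7a, set beside let-7b, had -0.98, -1.32, -0.35 and -0.96, below 0 but above each median. No p-value is given for the differences between the lines. The miRNAs past 2-fold were picked for their ratios in BNL CL.2, and let-7a was added beside them.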

How the data were processed

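Small RNA of 4 BNL CL.2 libraries (2U, 2T, 4U and 4T) was analysed as 2 pairs, 1 at each time. The authors deposited counts of reads per known miRNA. Per the labels and the study's methods, adapters were trimmed with cutadapt, rRNA, tRNA and repeat reads were removed with Bowtie 0.12.7, reads were assigned to miRBase (release not given in the sources used here), builds mm9 and hg19 are named, and miRNAs with fewer than 2 reads were left out. A read that could belong to several family members may be split or counted under more than 1 name: let-7a-1* and let-7c-2* have identical counts in all 4 libraries.

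Counts were divided by the quality reads that the study lists for each library. The main test was the quasi-likelihood test of edgeR 4.0.16 (R 4.3.3), with time and treatment as terms, a filter at an average of 1 RPM, Benjamini-Hochberg adjustment and 1 residual degree of freedom. Its biological coefficient of variation was 0.681. The SE printed with its log2 fold changes is not an output of the test. It is the size of the fold change in log2 divided by the square root of the test's F statistic. The script was tested on simulated counts. Intervals of single ratios are 95% Clopper-Pearson intervals on the split of the counts. Like the limit of 3 reads for a count of 0, they cover counting error only, and PCR reads are not independent molecules. Intervals of medians come from ranks and describe the spread of the ratios over the miRNAs of a pair of libraries. No interval covers the spread between cultures. DESeq2 1.42.0, limma 3.58.1, other scalings, other minimums, a pseudocount of 1 RPM and leaving out each library were alternatives. Python 3.11.15 with pandas 2.3.3, numpy 2.4.6, scipy 1.17.1 and matplotlib 3.10.9 did the rest.

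Named were the miRNAs past the edgeR threshold, those past 2-fold at both times, the 10 most abundant, the oncogenic miRNAs the study names and up to 4 members of each of 27 lists. Others were singled out after their values were seen: miR-129-2-3p, miR-210*, the 13 miRNAs low in 1 library, and those near the 2-fold limit. The members and lists were chosen with earlier results of these data known. The mRNA libraries were not used here.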

Additional observations from a re-analysis of the deposited data

Results flagged for a closer look

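Of the 110 miRNAs with at least 10 RPM in either library of both pairs, miR-532-3p was at least 2-fold higher in treated cells at 2 h and at least 2-fold lower at 4 h. It was at 2.19 RPM (2U), 18.4 (2T), 44.3 (4U) and 9.91 (4T). The log2 ratio was 3.07 at 2 h (95% counting interval 2.26 to 4.00) and -2.16 at 4 h (-2.51 to -1.82), a difference of -5.23. With 1 library per condition the difference was not tested. Both untreated libraries lay outside the range of the treated ones, 2U below it and 4U above it. No miRNA showed the reverse order, lower at 2 h and higher at 4 h, past 2-fold.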

How the results depend on the processing

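The 8 miRNAs past 2-fold at both times were all kept under a minimum of 10 reads, of 1 RPM, a pseudocount of 1 RPM and scaling to the miRNA total or to reads after the tRNA filter, and miR-125a-3p was lost with TMM. These 3 scalings each added miR-16 to those higher at both times. Reads after the tRNA filter also added let-7d, and TMM added miR-22, giving 6 higher with either and 5 with the miRNA total. A minimum of 10 reads or of 1 RPM gave 8 lower at both times (adding miR-129-5p, miR-181d*, miR-191* and miR-3066*), 23 higher with either and 39 or 46 lower at 2 h, and 23 or 25 lower at 4 h. TMM gave 10 lower at 2 h. Other 2-fold counts stayed within 1.5 times.

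The edgeR call of miR-129-5p (log2 fold change -8.96) was lost, giving 0 lower, with the miRNA total, TMM, reads after the tRNA filter, DESeq2 size factors, a mean of at least 10 RPM (at which it is not tested), no time term and limma. Scaling to reads mapped to miRBase gave 1 higher (let-7e) and 2 lower, no filter 2 lower, and DESeq2 3 higher and 2 lower with either scaling, the second lower miRNA being miR-25. Leaving out each library, with no time term, gave 0 to 1 lower and 0 higher, the 1 being miR-31 without 2T. Adjusted p of miR-129-5p ranged from 8.99e-07 to 0.995 and of miR-25 from 1.71e-06 to 0.995. The cause was not tested. miR-23a (-0.07) became 0.030 with the miRNA total and 0.17 with TMM, and miR-19a (-0.04) became 0.053 and 0.19.

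The median log2 ratio at 2 h was 0.044 with TMM and -0.50 with reads after the tRNA filter. For the deposited counts, the share of quality reads assigned to miRNAs, treated over untreated, was -0.09 and -0.10 in log2 at 2 h and 4 h. As a share of reads after the tRNA filter it was -0.22 and 0.077. The larger numbers of reads mapped to miRBase that the study lists were not used for these shares. The time term of the main test pairs the libraries by time. Beyond that, by replicate number, no paired analysis was possible because each condition is 1 library. Leaving out a library with the time term kept leaves no residual degree of freedom. The subtraction of GC and the exclusion of the 13 miRNAs were chosen after seeing the data.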

Other observations

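miRNAs outside the lists that were past 2-fold at 1 time point were mostly of low or moderate level. miR-130b was at 44.5 RPM in 2U and between 173 and 175 RPM in 2T, 4U and 4T, so 2U stood apart, and its log2 ratio was 1.96 at 2 h and -0.01 at 4 h. miR-324-5p was at 42.1, 23.7, 13.9 and 5.07 RPM in 2U, 2T, 4U and 4T and had negative ratios at both times (-0.83 and -1.45). miR-193 was at 23.3, 22.0, 5.22 and 21.2 RPM, and miR-17* at 38.3, 38.5, 2.73 and 15.8 RPM, in both of which 4U was the low library. miR-16-2* had 31.6 RPM in 2T and at most 1.36 RPM in the others. miR-24-2* was at 450 RPM in 2U and 114 to 178 RPM in the others.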
